A study of Mus musculus with 2 samples.

Results

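A set of 39 cell cycle genes was followed across the cell classes of dystrophic mouse hind limb muscle, out of 24984 gene symbols counted. The genes were taken by symbol and by their known phase, and all 39 had counts in both libraries. An S-phase list held 15 genes, a mitotic list (G2 and M phase) held 22, and Mxd3, a MYC-antagonizing transcription factor gene of proliferating cells, and Stmn1, which encodes a microtubule-destabilizing protein, were kept apart. Gene levels are unique molecular identifiers (UMIs, each standing for a captured RNA molecule) summed over the cells of a class in a library, given as counts-per-million (CPM) of all UMIs of that class and library.

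Single cell RNA-seq had been performed on mdx mice, whose hind limb muscles were pooled within a group and dissociated, and whose live mononuclear cells were sorted. These mice lack dystrophin and model Duchenne muscular dystrophy. The Ctrl mice were Pax7CreERT2/R26YFP; Yy1+/+; mdx and the dKO mice were Pax7CreERT2/R26YFP; Yy1f/f; mdx. Both were given tamoxifen as young adults and sampled a month later, so both carry the Cre driver, the YFP reporter and the dystrophin mutation, and they differ by the floxed Yy1 alleles. The Pax7-driven Cre acts in muscle stem cells (MuSCs) and their progeny, and it does not target Yy1 in the other classes. Each group had 1 library, so a difference below is between these libraries, with no replicate check and no test. The 95% intervals (exact Poisson for levels, exact conditional for ratios, exact binomial for shares, Newcombe for differences of shares) cover counting error only, and since a few cells hold most mitotic UMIs, the spread between animals and between cells is not in them.

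Cells copy their DNA once per cycle in S phase and separate the copies in mitosis. Replication genes, such as those of the MCM helicase, PCNA and ribonucleotide reductase, rise from late G1 under E2F factors, while mitotic genes are held down by the DREAM repressor complex through CHR promoter elements and are switched on in G2 by B-MYB and FOXM1. Dystrophic muscle holds dividing cells of several kinds, among them MuSCs that rebuild fibres, macrophages and fibro-adipogenic progenitors (FAPs), the stromal cells that deposit matrix.

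The S-phase list comprised the helicase subunits Mcm2 to Mcm7, the polymerase clamp Pcna, the ribonucleotide reductase subunits Rrm1 and Rrm2, the thymidylate synthase Tyms, the origin factors Cdc6, Cdt1 and Gins2, the methylation maintenance factor Uhrf1 and the PCNA-binding factor Pclaf. The mitotic list comprised the kinase Cdk1 with the cyclins Ccna2, Ccnb1 and Ccnb2, the anaphase-promoting complex partners Cdc20 and Ube2c, the kinases and checkpoint proteins Aurka, Aurkb, Plk1, Bub1 and Bub1b, and the chromosome and spindle proteins Cdca3, Cdca8, Mki67, Top2a, Birc5, Nusap1, Tpx2, Kif11, Cenpe, Cenpf and Hmmr.

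Promoter sequences of both lists are shown because the lists, which moved apart in the counts of several classes, also differ in their promoter letters. Windows of 250 bases before to 50 after the transcription start (RefSeq, GRCm38.p6) were found for 33 of the 39 members. They were searched on both strands for CHR (TTTGAA, or else TTCGAA, which reads the same on either strand), for CCAAT, for an E2F site (TTTGGCG, or else TTTCGCG, or else TTCCCGC) and for a YY1 site (ATGGCGG). Shown are the 130 bases before and 30 after the start of 4 mitotic and 2 S-phase members, read along the gene, with matches on either strand in capitals. In Mcm6 the run of capitals with both TTTGGCG and the reverse of TTTCGCG is a pair of overlapping E2F matches.
Ccnb2 (chr9:70421525-70421684, minus strand): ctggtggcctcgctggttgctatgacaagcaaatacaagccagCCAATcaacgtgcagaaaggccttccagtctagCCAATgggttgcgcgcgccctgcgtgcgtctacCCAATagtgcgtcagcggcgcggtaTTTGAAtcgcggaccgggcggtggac
Cdc20 (chr4:118437314-118437473, minus strand): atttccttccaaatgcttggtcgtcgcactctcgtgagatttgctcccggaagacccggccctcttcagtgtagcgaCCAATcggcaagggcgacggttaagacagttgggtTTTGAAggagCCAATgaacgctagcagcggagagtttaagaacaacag
Ube2c (chr2:164769799-164769958, plus strand): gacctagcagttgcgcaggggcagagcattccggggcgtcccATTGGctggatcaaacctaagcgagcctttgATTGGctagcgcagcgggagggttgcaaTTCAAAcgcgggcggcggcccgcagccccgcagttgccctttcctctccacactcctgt
Cdk1 (chr10:69352883-69353042, minus strand): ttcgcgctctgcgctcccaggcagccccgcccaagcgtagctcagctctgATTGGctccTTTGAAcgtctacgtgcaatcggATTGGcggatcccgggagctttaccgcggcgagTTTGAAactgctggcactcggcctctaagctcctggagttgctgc
Mcm3 (chr1:20820283-20820442, minus strand): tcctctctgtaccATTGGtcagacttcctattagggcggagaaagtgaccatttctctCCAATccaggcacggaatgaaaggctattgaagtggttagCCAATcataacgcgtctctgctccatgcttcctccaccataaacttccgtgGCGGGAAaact
Mcm6 (chr1:128359676-128359835, minus strand): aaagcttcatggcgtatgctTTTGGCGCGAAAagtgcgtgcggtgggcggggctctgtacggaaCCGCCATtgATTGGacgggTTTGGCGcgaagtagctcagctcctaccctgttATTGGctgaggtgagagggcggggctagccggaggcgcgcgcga

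CHR letters were found in 15 of the 19 mitotic members with a window and in 2 of the 13 S-phase members (Mcm2 and Mcm7). Among all 27025 gene symbols with a window the share was 21.7%, a symbol counting when any of its windows matched. E2F letters went the other way, with 9 of 13 S-phase members, 2 of 19 mitotic members (Cdca8 and Cdk1) and 7.64% of all symbols. CCAAT was present in 17 of 19 mitotic and 10 of 13 S-phase members, against 41.1% of all symbols. All 15 mitotic members with CHR also held CCAAT, a pair found for 9.65% of symbols. The YY1 letters were found in Mcm5, Mcm6 and Rrm1 of the S-phase list and Kif11 of the mitotic list, against 4.69% of all symbols. A match describes the letters only, and binding was not measured here.

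The Ctrl library held 4527 barcodes and 45556596 UMIs and the dKO library 3483 barcodes and 33815155 UMIs, with 7 barcodes in common. After a minimum of 500 genes and removal of the 292 Ctrl and 240 dKO cells with the highest doublet scores, 4043 Ctrl and 3089 dKO cells were analysed (median UMIs per cell 7910 and 7834). Classes were named from markers after clustering without 179 cell cycle genes, the members among them, although a small MO/MP-like cluster described below was still led in part by cell cycle genes. Yy1 in MuSC-like cells was 162 CPM in Ctrl (388 UMIs in 86 of 119 cells) and 4.46 CPM in dKO (3 UMIs in 1 of 33 cells), a log2 ratio of dKO over Ctrl of -5.18 (-7.47 to -3.62). All ratios below are log2 ratios of dKO over Ctrl, so a negative value is lower in dKO. In monocyte and macrophage-like (MO/MP-like) cells the Yy1 ratio was 0.12, and in FAP-like cells it was 0.11. In T cell-like cells it was -0.37 (-0.74 to -0.01), on 131 and 127 UMIs.

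Class names were checked against their markers. The 14 MuSC markers summed to 4977 CPM in Ctrl and 3925 CPM in dKO MuSC-like cells, in which all 8 measured T cell markers were at 0. That class also held 10 myocyte genes at 2519 and 4108 CPM, 15 FAP genes at 1464 and 625 CPM, 13 smooth muscle/pericyte genes at 687 and 473 CPM and 20 MO/MP genes at 509.8 and 103 CPM. The part of these other lists in the results of MuSC-like cells was not tested. T cell-like cells held NK cell genes (1937 and 1601 CPM) nearly as high as T cell genes (2263 and 2749 CPM), and in their cells with most mitotic UMIs the NK list (3706 and 3894 CPM) was above the T cell list (729 and 2037 CPM), so that class is a mixture of T and NK-like cells.

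Division genes were unevenly spread over the muscle (see the plot of list levels by class). In Ctrl, the mitotic list was highest in neutrophil-like (1773 CPM), T cell-like (1458 CPM) and MuSC-like cells (1368 CPM). Dendritic cell-like cells (629.8 CPM), MO/MP-like cells (584 CPM) and FAP-like cells (441 CPM) followed, and tenocyte-like cells were lowest at 13.4 CPM. In dKO, MuSC-like cells came first at 1785 CPM, ahead of T cell-like (1052 CPM), dendritic cell-like (957 CPM), FAP-like (311 CPM) and MO/MP-like cells (223 CPM). The order of the last pair was thus turned between the libraries, and neutrophil-like cells had 2 mitotic UMIs in 36 cells. That last value follows the doublet step, since with no doublets removed dKO neutrophil-like cells held 235 mitotic UMIs, 233 of them in 3 removed cells. The first ranks rested on few cells. In Ctrl, 3 cells held 48.5% of the mitotic UMIs of neutrophil-like, 67.1% of T cell-like and 41.3% of MuSC-like cells. In dKO, 3 of the 33 MuSC-like cells held 73.5%. With cell cycle genes let into the clustering, 3 dKO cells with 67.6% of these UMIs left that class. Since MO/MP-like and FAP-like cells are by far the most numerous classes, they held most of the UMIs of most members. In summed values, fewer cells in cycle and less RNA per cycling cell cannot be told apart.

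**Figure D1:**
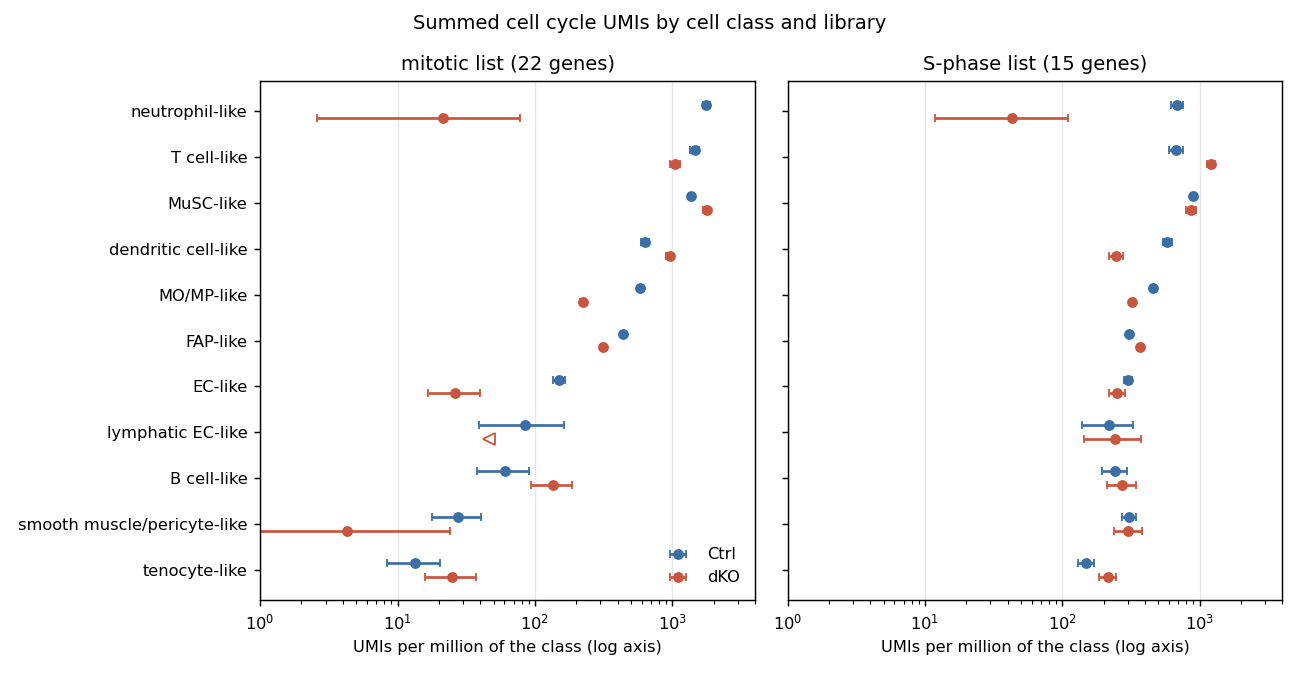
Summed level of the mitotic list (left) and the S-phase list (right) in 11 cell classes, in CPM on a log axis, Ctrl in blue and dKO in red, with exact Poisson 95% intervals as bars and an open triangle for the upper limit of a class with no UMI. Mitotic levels run over a far wider range between classes than S-phase levels, and in MO/MP-like cells the dKO mitotic level (223 CPM) lies below Ctrl (584 CPM).

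S-phase genes had a far higher floor. Their list was at 149 CPM in Ctrl tenocyte-like cells, 299.3 CPM in endothelial (EC-like) cells and 307 CPM in smooth muscle/pericyte-like cells, where the mitotic list was at 13.4, 151 and 27.3 CPM. Rrm1, the large ribonucleotide reductase subunit, was even highest in smooth muscle/pericyte-like cells (102 CPM in Ctrl and 177 CPM in dKO). The S-phase list therefore also reads cells with almost no mitotic UMI, and the ratio of mitotic to S-phase UMIs differs by class, from 0.089 in Ctrl smooth muscle/pericyte-like cells to 2.59 in Ctrl neutrophil-like cells.

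Single members had their own class patterns. Mki67, the gene of the proliferation antigen Ki-67, was highest in Ctrl T cell-like cells (337 CPM) and in dKO MuSC-like cells (294 CPM). Top2a, the topoisomerase that untangles chromosomes, followed it, at 218 CPM in Ctrl T cell-like and 266 CPM in dKO MuSC-like cells. Ccnb1, the cyclin that starts mitosis, and Rrm2, the S-phase-restricted reductase subunit, were both highest in MuSC-like cells in each library (Ccnb1 45.5 and 32.7 CPM, Rrm2 106 and 72.9 CPM). Cdk1, the kinase bound by Ccnb1, was highest in neutrophil-like cells of Ctrl (85.5 CPM) and in MuSC-like cells of dKO (78.8 CPM). Pcna was highest in MO/MP-like cells in Ctrl (140.2 CPM) and in T cell-like cells in dKO (179 CPM). Mcm5 peaked in MuSC-like cells in Ctrl (38.4 CPM) and in T cell-like cells in dKO (53.3 CPM), and Stmn1 in MuSC-like cells of both (321 and 400.1 CPM). Mxd3 was low throughout, at 7.95 CPM in neutrophil-like, 7.58 CPM in FAP-like and 7.10 CPM in MuSC-like cells of Ctrl, and highest in MuSC-like cells of dKO (26.8 CPM on 18 UMIs). Here too, the mitotic gene levels of dKO MuSC-like cells rest on the few cells described above.

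In MO/MP-like cells, all 22 mitotic genes were lower in the dKO library, and the S-phase genes were lower by less. The mitotic list was at 584 CPM in Ctrl (8609 UMIs in 1508 cells) and at 223 CPM in dKO (2020 UMIs in 1157 cells), a log2 ratio of -1.39 (-1.46 to -1.32). The S-phase list was at 454 and 323 CPM, a ratio of -0.49 (-0.55 to -0.43). Counted at 1.5-fold or more, 22 of 22 mitotic and 7 of 15 S-phase members were lower and none of the 39 was higher, where 9.29% of all 11499 genes with at least 20 UMIs were lower and 6.03% were higher. The median log2 ratio was -1.51 over mitotic members, -0.49 over S-phase members and -0.04 over all genes.

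The cyclin and CDK group was lowest, followed closely by the anaphase-promoting complex partners. Ccnb1 was at 11.6 CPM in Ctrl and 3.10 CPM in dKO, a log2 ratio of -1.91 (-2.54 to -1.32), and its sister cyclin Ccnb2 was at 24.4 and 6.52 CPM. Cdc20, the activator that starts anaphase, was at 11.7 and 3.21 CPM, a ratio of -1.87 (-2.49 to -1.30). Ube2c, the conjugating enzyme of the same complex, was at 64.9 and 23.0 CPM. Kinases and checkpoint genes had ratios from -1.64 (Bub1) to -1.08 (Aurkb), and chromosome and spindle genes from -1.85 (Cenpf, a kinetochore protein) to -0.85 (Mki67). Hmmr, a spindle-assembly protein, fell close to Cenpf, from 16.3 to 4.53 CPM (-1.84).

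S-phase members split. Rrm2 was lowest, at 17.8 CPM in Ctrl and 5.75 CPM in dKO, a log2 ratio of -1.63 (-2.09 to -1.19), next to Pclaf (51.9 and 22.4 CPM, -1.21) and Tyms (16.4 and 8.18 CPM). The 6 MCM helicase genes were all lower, with ratios between -0.60 (Mcm5) and -0.38 (Mcm2), and Pcna was at 140.2 and 115 CPM (-0.29). The licensing factor Cdt1, which loads the helicase in G1, went the other way, at 27.7 and 32.6 CPM (0.24, 0.02 to 0.46). Cdc6, with which Cdt1 acts, was at 5.16 and 4.87 CPM with an interval that includes no change. Stmn1 was at 185 and 88.4 CPM (-1.07), and Mxd3, at 26 and 7 UMIs, had an interval that includes no change.

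**Figure D2:**
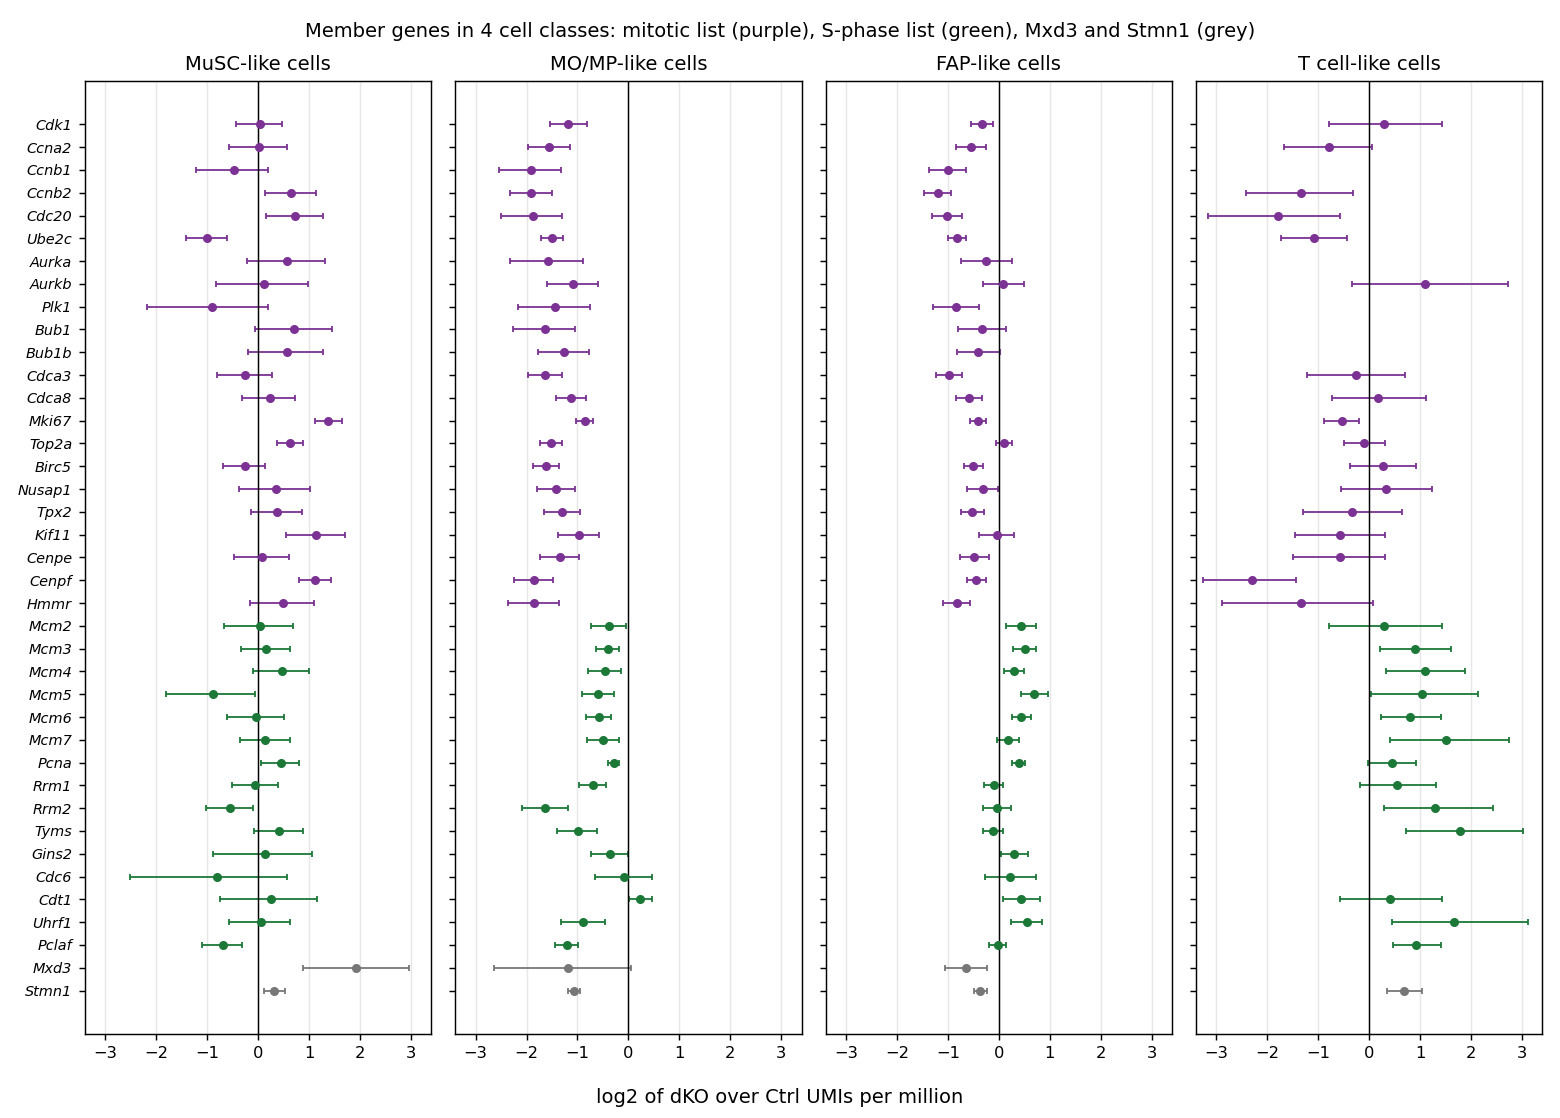
Log2 ratio of dKO over Ctrl for each member in MuSC-like, MO/MP-like, FAP-like and T cell-like cells, mitotic genes in purple, S-phase genes in green, Mxd3 and Stmn1 in grey, with 95% counting intervals as bars and members under 20 UMIs left out. In MO/MP-like cells 38 of 39 points lie below 0, in FAP-like cells 20 of 22 mitotic points lie below 0 and 11 of 15 S-phase points above it, and in T cell-like cells all 13 plotted S-phase points lie above 0.

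The other genes of mitosis and replication, on lists of 72 and 36 genes without the members, were mostly lower in this class too. Of the 72 mitosis genes 47 were lower by 1.5-fold or more and none was higher, although 2 had an interval above no change, and of the 36 replication genes 13 were lower and none was higher (9.29% lower and 6.03% higher among all genes). Named by size were Cdc25c, the phosphatase that activates Cdk1, at 2.04 and 0.221 CPM (2 dKO UMIs), Pimreg at 4.75 and 0.774 CPM, and Ect2, which places the cleavage furrow, at 5.09 and 1.33 CPM. Among replication genes they were Cdca7 (-1.62), E2f8 (-1.24) and the helicase cofactor Cdc45 (-1.19). Foxm1, the activator of G2 genes, was at 4.89 and 2.10 CPM (-1.22, -2.03 to -0.47).

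Much of this came from a small cluster. A cluster of 58 Ctrl and 15 dKO cells, led by Ctsg, Prtn3, Myb and histone genes, held 69.8% of the mitotic UMIs of Ctrl MO/MP-like cells and 45.1% in dKO. Its 10 leading genes include no MO/MP marker and include the member Nusap1, although 17 of 20 MO/MP markers were enriched in it. Its own mitotic level was also lower in dKO, at 5379.7 CPM in Ctrl and 3619 CPM in dKO (-0.57, -0.67 to -0.47), while its S-phase list was at 2319.7 and 2877 CPM (0.31, 0.19 to 0.43). By cell, 54 of its 58 Ctrl cells and all 15 dKO cells held 3 or more mitotic UMIs when thinned to 2000 UMIs, so nearly every cell of it carried mitotic RNA in both libraries. It differed in makeup, since 13 of the 58 Ctrl cells and none of the 15 dKO cells held 10 or more UMIs of the neutrophil precursor genes Elane, Mpo, Prtn3 and Ctsg. In those 13 cells the macrophage gene C1qa was at 63.7 CPM, against 1913 CPM in the other 45 and 1690.3 CPM in the dKO cells. Mitotic list levels were 3949 CPM in the 13 cells, 5939 CPM in the other 45 and 3619 CPM in the dKO cells, so that the dKO level was below both.

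Without that cluster, an alternative chosen after seeing the data, the mitotic ratio of MO/MP-like cells was -0.60 and the S-phase ratio -0.27. Then 15 of 22 mitotic and 4 of 15 S-phase members were lower by 1.5-fold or more, against 7.19% of all genes. The mitotic list was lower in dKO in each of the 4 further MO/MP-like clusters described here. The difference was smallest in the Atp6v0d2 and Spp1-led cluster (146 and 99.7 CPM, -0.55) and largest in the Fcna and Cd163-led cluster of resident macrophage genes (279 and 59.3 CPM, -2.24). The cluster led by Dcstamp and Ear2, with the highest mitotic level of these 4, was at 607 and 369 CPM (-0.72). S-phase levels went both ways between these clusters, from -0.72 in the Atp6v0d2 and Spp1-led cluster to 0.32 in the Fcna-led cluster. The removal of likely doublets also bore on the size of the difference, since removed cells would hold 35.4% of the mitotic UMIs of dKO MO/MP-like cells and 5.496% of those of Ctrl. With no doublets removed the mitotic ratio was -0.77. The class borders moved as well under that choice, since Ctrl B cell-like cells then held 923 mitotic UMIs, of which 1 was in a removed cell, against 22 UMIs otherwise.

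**Figure D3:**
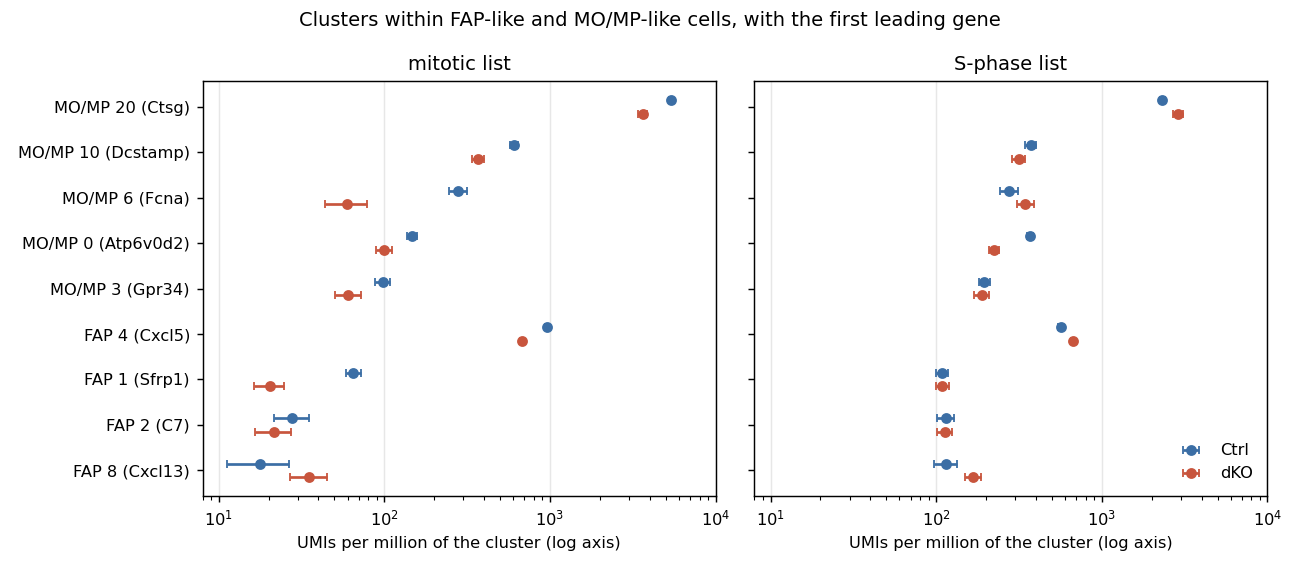
Mitotic and S-phase list levels, in CPM on a log axis, in the 5 MO/MP-like clusters with the highest Ctrl mitotic level and in 4 FAP-like clusters, Ctrl in blue and dKO in red with 95% counting intervals. The Ctsg and Prtn3-led cluster (5379.7 and 3619 mitotic CPM) and the Cxcl5-led FAP-like cluster (955 and 674 mitotic CPM) stand above the other clusters of their classes.

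In FAP-like cells the lists went opposite ways, with mitotic genes lower and S-phase genes higher in the dKO library. The mitotic list was at 441 CPM in Ctrl (7153 UMIs in 1136 cells) and 311 CPM in dKO (5169 UMIs in 1180 cells), a log2 ratio of -0.51 (-0.56 to -0.45). The S-phase list was at 307 and 365 CPM, a ratio of 0.25 (0.20 to 0.31). Mitotic UMIs per S-phase UMI thus went from 1.44 to 0.850, a ratio of 0.591 (0.561 to 0.623). By 1.5-fold or more, 8 mitotic members and Mxd3 were lower and 1 S-phase member (Mcm5) was higher, against 6.32% of 12746 genes lower and 4.29% higher. Counting intervals lay below no change for 16 of 22 mitotic members and above it for 9 of 15 S-phase members, and for no member of either list the other way. The difference was smaller than 1.5-fold for most.

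The genes of mitotic entry and exit were lowest here too. Ccnb2 was at 22.9 CPM in Ctrl and 9.97 CPM in dKO, a log2 ratio of -1.20 (-1.47 to -0.93), Ccnb1 at 11.9 and 5.95 CPM and Cdc20 at 18.4 and 9.13 CPM (-1.01). Cdca3, which triggers mitotic entry, was at 22.3 and 11.4 CPM (-0.98). Plk1, the kinase acting from mitotic entry to cytokinesis, was at 7.28 and 4.08 CPM (-0.83), and Hmmr had the same ratio. Top2a (38.97 and 41.6 CPM) and Kif11 (8.88 and 8.65 CPM), a spindle motor, had intervals that include no change, as did Aurka, Aurkb, Bub1 and Bub1b.

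Among S-phase members, Mcm5 was at 12.1 CPM in Ctrl and 19.6 CPM in dKO, a log2 ratio of 0.70 (0.44 to 0.96), Uhrf1 at 9.68 and 14.1 CPM (0.54) and Mcm3 at 17.8 and 25.3 CPM (0.51). Of the 6 MCM genes, Mcm7 alone had an interval that includes no change. Pcna was at 56.0 and 73.5 CPM (0.39). In contrast, the nucleotide synthesis genes Rrm1 (27.4 and 25.5 CPM), Rrm2 (13.7 and 13.3 CPM) and Tyms (29.5 and 27.3 CPM) and the clamp-binding factor Pclaf (38.8 and 38.1 CPM) all had intervals that include no change. Stmn1 (71.2 and 55.3 CPM, -0.37) and Mxd3 (7.58 and 4.87 CPM, -0.64) were lower.

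The wider lists went mostly the same ways, with exceptions. Of the 72 further mitosis genes 17 were lower by 1.5-fold or more in FAP-like cells (6.32% of all genes) and none was higher, while 33 intervals lay below no change and 4 above. The lower were led by Cenpa, the centromeric histone (31.2 and 14.1 CPM, -1.14), Cdkn3 (-1.08) and Lockd (-1.02). Of the 36 further replication genes none was lower and 8 were higher (4.29% of all genes). The largest ratios were those of the exonuclease Exo1 (9 and 26 UMIs, 1.49), the G1/S cyclin Ccne2 (1.73 and 3.96 CPM, 1.20) and the replication checkpoint adaptor Clspn (7.21 and 12.9 CPM, 0.84). Foxm1 did not share in this, at 4.93 and 4.87 CPM.

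FAP-like division was nearly all in a cluster led by Cxcl5, Il1rl1 and Ltbp2. It held 291 of the Ctrl and 322 of the dKO FAP-like cells, 93.8% and 95.8% of the mitotic UMIs and 79.6% and 81.4% of the S-phase UMIs. Within it the mitotic list was at 955 and 674 CPM (-0.50) and the S-phase list at 564 and 674 CPM (0.26), close to the values of the whole class. Of the other 3 clusters the Sfrp1-led was lower in the mitotic list (65.0 and 20.3 CPM), the Cxcl13-led was higher (17.7 and 35.1 CPM) and the C7-led had an interval that includes no change.

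In MuSC-like cells, where Yy1 was deleted, 17 of 22 mitotic genes were higher in dKO and 5 were lower, and few cells carried the counts. Intervals lay above no change for 6 of the 22 and below it for 1. Most members had intervals that include no change. The mitotic list was at 1368 CPM in Ctrl (3277 UMIs in 119 cells) and 1785 CPM in dKO (1200 UMIs in 33 cells), a log2 ratio of 0.38 (0.29 to 0.48). The S-phase list was at 895 and 864 CPM (-0.05, -0.19 to 0.08). By 1.5-fold or more, 5 of 39 members were lower and 8 higher, where 16.5% of 9054 genes were lower and 16.4% higher. By that limit, 7 of the 22 mitotic members were higher and 2 lower (median 0.36). Of the 15 S-phase members none was higher and 3 were lower by it (median 0.05). In dKO, 1 cell held 30.9% of the mitotic UMIs and 3 cells held 73.5%, against 16.5% and 41.3% in Ctrl. Without the cell with most list UMIs in each library the mitotic ratio was 0.12. When cell cycle genes were let into the clustering it turned to -1.05, as 3 dKO cells with 67.6% of the mitotic UMIs then moved to other classes. 

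Among single members in MuSC-like cells, Mki67 was at 113 CPM in Ctrl (271 UMIs in 31 cells) and 294 CPM in dKO (198 UMIs in 9 cells), a log2 ratio of 1.38 (1.11 to 1.65). Kif11 (1.14), Cenpf (1.11) and Mxd3 (1.92) were also higher, although Mxd3 rested on 17 UMIs and 18 UMIs, the latter in 2 cells, and a single dKO cell held 50.4% of Cenpf. Ube2c was lower, at 184 and 92.2 CPM, as were Mcm5 (38.4 and 20.8 CPM, -0.88), Pclaf (159 and 98.2 CPM, -0.69) and Rrm2 (-0.54). Pcna (91.8 and 125 CPM, 0.44), Ccnb2 (0.65), Cdc20 (0.73), Top2a (0.63) and Stmn1 (0.32) were higher. The other 26 members, among them Cdk1 (77.2 and 78.8 CPM) and Ccnb1 (45.5 and 32.7 CPM), had intervals that include no change. Of 68 further mitosis genes with 20 UMIs, 36 were higher by 1.5-fold or more and 2 lower, led by Gas2l3, Kif20b and Sgo1, whose dKO UMIs came from 5, 8 and 5 cells. Of 32 further replication genes 6 were higher and 2 lower (median 0.01), close to the 16.4% of all genes that were higher, and Dscc1, Blm and Mcm10 had the largest ratios (2.07, 1.83 and 1.71), each on fewer than 20 UMIs a library.

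In T cell-like cells the S-phase list was higher and the mitotic list lower in dKO, as in FAP-like cells, on few cells. The S-phase list was at 672 CPM in Ctrl (311 UMIs in 124 cells) and 1209.7 CPM in dKO (704 UMIs in 144 cells), a log2 ratio of 0.85 (0.65 to 1.05). In dKO 1 cell held 24.1% of these S-phase UMIs and 3 cells held 46.6%, against 23.5% and 40.5% in Ctrl. The mitotic list was at 1458 and 1052 CPM (-0.47, -0.63 to -0.31), with 34.7% of the Ctrl UMIs in 1 cell. Of 31 members with 20 UMIs, 6 were lower and 11 higher by 1.5-fold or more, against 11% of 5574 genes lower and 12.4% higher. All 6 lower members were mitotic and 9 of the 11 higher were S-phase genes. Cenpf (119 and 24.1 CPM, -2.30), Cdc20 (-1.79) and Ccnb2 (-1.33) had the largest ratios on the lower side and Tyms (19.4 and 67.0 CPM, 1.79), Uhrf1 (15.1 and 48.1 CPM, 1.67) and Mcm7 (19.4 and 55.0 CPM) on the higher side. The other 2 higher members were Stmn1 and Aurkb, and 8 members (Gins2, Cdc6, Ccnb1, Aurka, Plk1, Bub1, Bub1b and Mxd3) had under 20 UMIs. Stmn1 was at 238 and 383 CPM. Of 41 further mitosis genes with 20 UMIs 8 were lower and 3 higher (median -0.11), and of 19 replication genes 1 was lower and 14 higher (median 0.93). Named from these lists were Knstrn (-2.01), Cdkn3 (-1.83, with 88.2% of its 17 Ctrl UMIs in 1 cell) and Kif23 (-1.25) of mitosis and Fen1 (1.60), Gmnn (1.29) and Wdr76 (1.33, interval -0.05 to 2.95) of replication. Mast cell genes also differed in this class, at 239.7 CPM in Ctrl and 691 CPM in dKO and at 0 and 7.23 CPM in the high-mitotic cells counted below, and their part in the difference was not tested.

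Smaller classes moved in several directions. In dendritic cell-like cells the mitotic list was at 629.8 and 957 CPM (0.60) and the S-phase list at 583 and 246 CPM (-1.24), the reverse of T cell-like cells, with 71.0% of the dKO mitotic UMIs in 3 cells. In EC-like cells the mitotic list was at 151 and 26.4 CPM (-2.51, -3.19 to -1.91), but a single Ctrl cell held 48.0% of its 404 UMIs, and the dKO sum was 23 UMIs. The doublet step weighed on this class too, since with no doublets removed the sums were 731 and 152 UMIs, with 44.9% and 84.9% of them in removed cells. The S-phase list of EC-like cells was at 299.3 and 251 CPM (-0.25). In B cell-like, tenocyte-like, smooth muscle/pericyte-like and lymphatic EC-like cells no library had more than 35 mitotic UMIs. Even so, the S-phase list of tenocyte-like cells was at 149 and 215 CPM (0.53, 0.25 to 0.81), a higher ratio than in FAP-like cells in a class with almost no mitotic RNA, with 24.6% of the dKO UMIs in 1 cell. The S-phase ratios of the other 3 classes had intervals that include no change.

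To count cells rather than UMIs at a common depth, each cell was thinned to 2000 UMIs at random, and a cell with 3 or more mitotic UMIs was called high. In Ctrl 173 of 3622 cells were high (4.78%, 4.10% to 5.52%), and in dKO 87 of 2799 (3.11%, 2.50% to 3.82%). Of the high cells, 49.7% in Ctrl and 36.8% in dKO were MO/MP-like, while 21.97% and 37.9% were FAP-like. No tenocyte-like cell (142 Ctrl and 82 dKO) and no smooth muscle/pericyte-like cell (107 and 31) was high, with upper 95% limits of 2.56%, 4.399%, 3.39% and 11.2%, and these classes serve here as a comparison, since free RNA was not measured itself.

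In MO/MP-like cells 86 of 1360 Ctrl cells (6.32%) and 32 of 1042 dKO cells (3.07%) were high, a difference of -3.25 percentage points (-4.93 to -1.55). Without thinning the shares were 12.5% and 7.78%, and thinning left out 148 and 115 cells as too shallow. Without the Ctsg and Prtn3-led cluster the difference was -1.03 points (-2.23 to 0.20), an interval that includes no change. In FAP-like cells 38 of 1070 (3.55%) and 33 of 1126 (2.93%) were high, a difference of -0.62 points (-2.15 to 0.88) that was not detectable at this depth, with 66 and 54 cells left out. Unthinned, 9.07% and 6.69% of FAP-like cells were high, and the interval of that difference (-2.37 points, -4.60 to -0.18) excludes no change. In MuSC-like cells 16 of 114 (14.0%) and 5 of 33 (15.2%) were high, a difference of 1.12 points (-10.3 to 17.7), with 37.0% and 36.4% unthinned and 5 and 0 cells left out. In T cell-like and dendritic cell-like cells the shares went against the summed levels (6.06% and 8.40%, 10.3% and 5.71%), and no order was read from them.

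The class is a range and not a type, since cells lie on both sides of the limit. With 2 and with 3 mitotic UMIs there were 20 and 12 MO/MP-like cells in Ctrl and 10 and 9 in dKO, and 6 and 7 FAP-like cells in Ctrl and 10 and 11 in dKO. High cells were also large, with a median of 31677 UMIs before thinning in Ctrl FAP-like cells against 12304.5 in those with no mitotic UMI, and 15375 against 8510.0 in MO/MP-like cells.

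Both lists were also read together in each cell. In FAP-like cells, those with 3 or more UMIs of the mitotic list alone were 27 in Ctrl and 12 in dKO, of the S-phase list alone 18 and 35, and of both 11 and 21. The share with 3 or more S-phase UMIs was 2.71% (1.82% to 3.87%) in Ctrl and 4.97% (3.78% to 6.41%) in dKO, although without thinning it was 28.2% in each. In MO/MP-like cells the mitotic list alone gave 32 and 20 cells, the S-phase list alone 57 and 29, and both lists 54 and 12, of 1360 and 1042 cells. The share with 3 or more S-phase UMIs there was 8.16% (6.76% to 9.75%) and 3.93% (2.84% to 5.30%). At 1 or more S-phase UMIs the FAP-like shares were 26.2% and 26.1%. The S-phase list also gave such cells in the comparison classes, at 1.41% and 3.66% of tenocyte-like and 4.67% and 12.9% of smooth muscle/pericyte-like cells. The 12.9% is 4 of 31 cells (3.63% to 29.8%). The FAP-like shares lie within the range of these classes and are not read as a difference between the libraries. Ctrl MO/MP-like cells lie above both comparison classes of Ctrl, and the MO/MP-like intervals of the libraries do not overlap. The part of the Ctsg and Prtn3-led cluster in this was not tested. No cell of the comparison classes reached 3 UMIs of both lists. Cells in S phase were not separated from the background of these classes, so no share is read as cells in S phase.

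**Figure D4:**
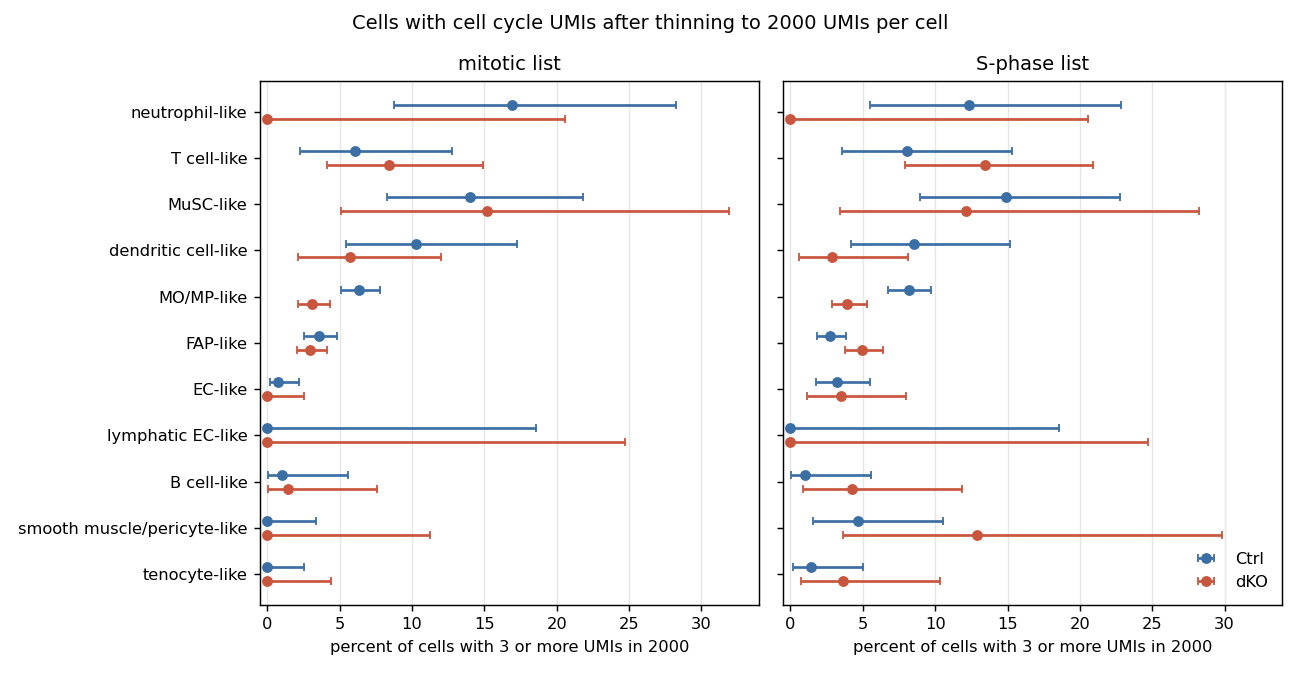
Percent of cells with 3 or more mitotic (left) or S-phase (right) UMIs after thinning every cell to 2000 UMIs, by class, Ctrl in blue and dKO in red with exact binomial 95% intervals. On the left MO/MP-like cells are lower in dKO (6.32% and 3.07%) and FAP-like intervals overlap (3.55% and 2.93%). On the right tenocyte-like and smooth muscle/pericyte-like cells run from 1.41% to 12.9%, the latter from 4 of 31 dKO cells. Ctrl MO/MP-like cells (8.16%) lie above both of these classes in Ctrl.

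Upstream of the members stand the G1 cyclins and CDKs, which open the cycle, and the CDK inhibitors, which hold it. In MuSC-like cells Cdkn1c, the inhibitor p57 of differentiating myoblasts, was at 655 CPM in Ctrl (1568 UMIs in 45 cells) and 95.2 CPM in dKO (64 UMIs in 8 cells), a log2 ratio of -2.78 (-3.17 to -2.42). Cdkn1a, the inhibitor p21, was higher in dKO in MuSC-like cells (645 and 1141 CPM, 0.82), in MO/MP-like cells (337 and 601 CPM, 0.84) and, by less, in FAP-like cells (0.28). The D cyclins differed by class. Ccnd1 was lower in MuSC-like cells (446 and 336 CPM, -0.41) and higher in MO/MP-like cells (51.6 and 83.8 CPM, 0.70), where Ccnd2 was higher as well (11.7 and 20.8 CPM, 0.82). Cdkn1c was lower in FAP-like cells too (199.9 and 112 CPM, -0.83). These lists were counted by 1.5-fold or more, which 16.5% of all genes lower and 16.4% higher reached in MuSC-like, 9.29% and 6.03% in MO/MP-like and 6.32% and 4.29% in FAP-like cells, so several counts lie near those of all genes. The 8 G1 genes gave 4 lower and 1 higher in MuSC-like, 2 higher in MO/MP-like and 1 higher (Ccne1) in FAP-like cells. Of the CDK inhibitors with 20 UMIs, 1 of 7 was lower and 2 higher in MuSC-like, 1 of 5 lower and 1 higher in MO/MP-like and 1 of 7 lower in FAP-like cells. Of the 17 genes of E2F, RB and DREAM proteins, 4 were lower in MO/MP-like cells, 2 were higher in FAP-like cells, and 1 was lower and 2 higher of the 14 with 20 UMIs in MuSC-like cells.

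Within a library, high cells were set beside cells of the same class with no mitotic UMI. Since the members chose these cells, the values describe them and test nothing. Cdkn1c was lower in high cells, at 902 and 98.6 CPM in Ctrl MuSC-like and at 218 and 57.5 CPM in Ctrl FAP-like cells. Cdkn2c and Cdkn2d, INK4 inhibitors that are themselves cell cycle genes, were higher in high cells, for Cdkn2c at 7.93 and 58.4 CPM in Ctrl MO/MP-like cells and 14.1 and 64.7 CPM in dKO FAP-like cells. Cdk4 was higher in high cells in each of the 3 classes and both libraries, with log2 ratios from 0.87 to 1.43. Cdkn1a in MO/MP-like cells went from 359.5 to 209 CPM in Ctrl and from 593 to 691 CPM in dKO.

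**Figure D5:**
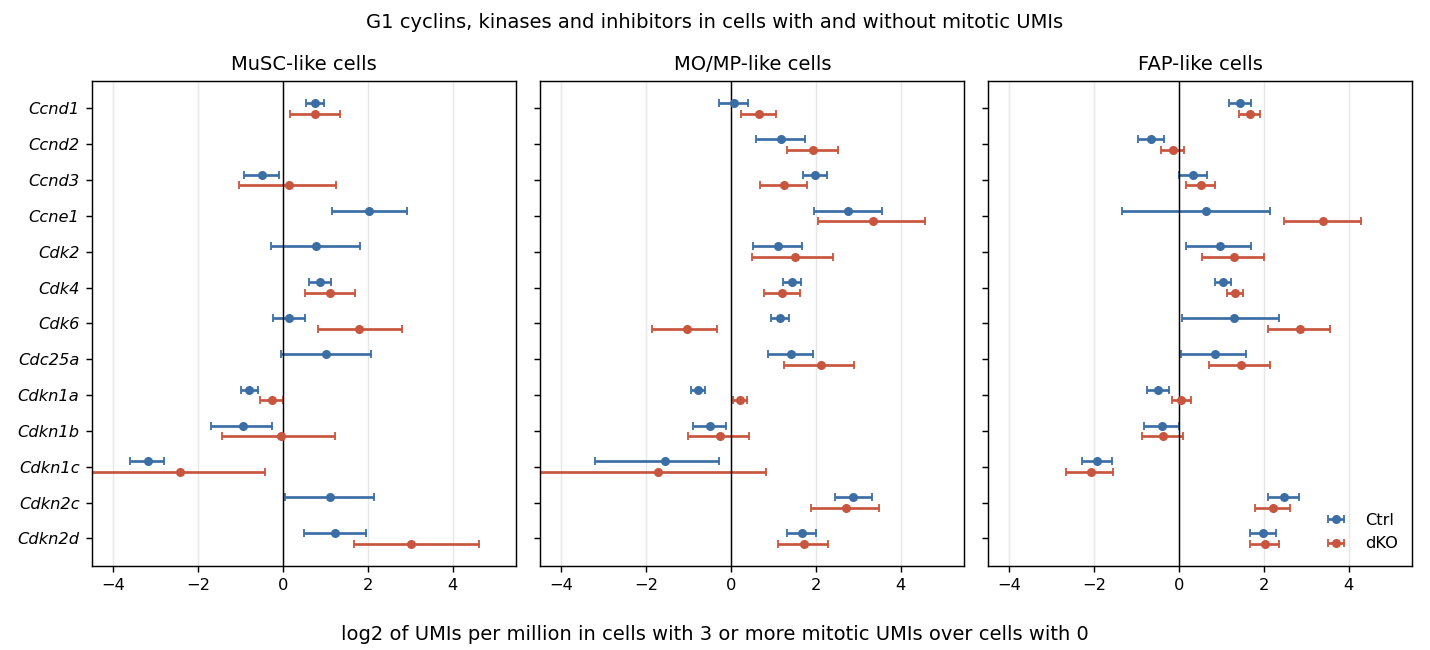
Log2 ratio of the level in cells with 3 or more mitotic UMIs (thinned to 2000) over cells with none, for G1 cyclins, CDKs and CDK inhibitors in MuSC-like, MO/MP-like and FAP-like cells, Ctrl in blue and dKO in red with 95% counting intervals, some of which run past the axis. Cdkn1c lies to the left and Cdk4, Cdkn2c and Cdkn2d to the right in every panel, while Cdkn1a in MO/MP-like cells lies at -0.78 in Ctrl and 0.22 in dKO. In dKO MO/MP-like cells Cdkn1c rests on 1 UMI in the high cells, and its interval (-7.05 to 0.82) includes no change.

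Some state genes of the high cells differed by library in MO/MP-like cells, and others did not. Monocyte genes (Ly6c2, Ccr2, Chil3, Plac8 and Vcan) together were at 821 CPM in Ctrl cells with no mitotic UMI and 1502 CPM in high cells (0.87), and at 1209 and 484 CPM in dKO (-1.32). The high cells came from different clusters, with 54 of 86 in Ctrl and 15 of 32 in dKO in the Ctsg and Prtn3-led cluster, where 16 of the 58 Ctrl cells held 666 Ly6c2 UMIs. The part of that cluster in the difference was not tested. The higher level in Ctrl lay in Ly6c2 (117 and 387 CPM) and Plac8 (172 and 562 CPM), while Vcan was lower in high cells (91.6 and 30.2 CPM). Neutrophil precursor genes, a list that shares Chil3 with the monocyte genes, were at 283 and 1605 CPM in Ctrl and 263 and 55.5 CPM in dKO. Chil3 made up 1970 of the 2013 dKO UMIs in cells with no mitotic UMI and 24 of the 26 in high cells. The dKO pair thus reads Chil3 and almost no other precursor gene. In high Ctrl cells Chil3 made up 437 of the 2500 UMIs, against 2788 of 3213 in Ctrl cells with no mitotic UMI. The 10 neutrophil markers went the other way in high cells, at 198 CPM in Ctrl and 493 CPM in dKO, against 213 and 118 CPM in the whole class. Erythroid genes moved too, at 115 CPM in high Ctrl and 742 CPM in high dKO cells, and their part was not tested. Resident macrophage genes (-0.58 in Ctrl and -0.25 in dKO) and MHC class II genes (-0.87 and -0.31) were lower in high cells of both libraries. Lipid-associated macrophage genes were slightly lower in high cells of Ctrl (-0.16) and had an interval that includes no change in dKO. In FAP-like cells both libraries were alike in direction, with Pi16+ FAP genes (-0.46 and -0.93) and parenchymal FAP genes (-1.16 and -1.12) lower in high cells and the sum of Cxcl5+ FAP genes higher (0.24 and 0.29). That sum was carried by Ccl2 (0.80 and 0.82) and Cxcl5 (0.54 and 0.32), while Has1 (-0.82 and -0.64) and Ccl7 (-0.35 and -0.14) were lower in high cells. In MuSC-like cells Myog, the gene of the differentiation factor myogenin, was at 1137 and 189 CPM in Ctrl, and in dKO 447 UMIs were in cells with no mitotic UMI and none in high cells. The quiescence list was lower in high cells of Ctrl (472 and 115 CPM) and had an interval that includes no change in dKO (409 and 284 CPM). Chodl, on that list, was lower in high cells of both libraries, at 166 and 10.03 CPM in Ctrl and 230.4 and 25.8 CPM in dKO (62 and 3 UMIs). In dKO Chodl fell by more than the whole list, so the other genes of the list together were higher in high cells, on few UMIs.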

How the data were processed

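The authors deposited raw UMI counts per gene and cell barcode for both libraries, per the labels made on mm10 with Cell Ranger 7.0.0 (the matrix header names 3.0.2). No mitochondrial gene is listed, so the study's mitochondrial filter could not be applied here. Cells with 500 or more genes were kept, and Scrublet (in scanpy 1.11.5, 30 components) scores ranked doublets. Of each library's cells, the top 7.5% was removed except ties at the limit, because Scrublet's own threshold called 4 and 14 cells. Libraries were integrated by anchors in Seurat 5.3.0 (2000 variable genes less 179 cell cycle genes, 40 dimensions, resolution 0.8), giving 23 clusters, of which 22 were named into 11 classes. A name needed 3 or more enriched markers (2-fold, in 10% of cells).

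Counts were summed per class and library and divided by the summed total. A gene was read with 20 or more UMIs over both libraries and called at 1.5-fold. Since each group was 1 library of pooled mice, no test was run, and 95% intervals cover counting error. The members and lists were chosen with earlier results of these data known. Members named with values were up to 6 in each class with the largest log2 ratio of those whose interval excludes no change, 8 fixed genes for levels across classes, and up to 3 genes from each further list, and others are given by range or in passing. Scripts were tested on simulated data. Values of 1 MO/MP-like cluster by itself are not reported here, while its cells stay in the class sums.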

Additional observations from a re-analysis of the deposited data

Results flagged for a closer look

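Over the pairs of MuSC-like, MO/MP-like, FAP-like and T cell-like cells, a list was picked out where the counting intervals of its dKO over Ctrl ratio lay on opposite sides of no change. Each class has 1 library per group, so none of these differences was tested. The S-phase list ratio was higher by 0.74 on the log2 scale in FAP-like than in MO/MP-like cells (0.25 and -0.49), and by 1.34 in T cell-like than in MO/MP-like cells (0.85 and -0.49). The mitotic list ratio of MuSC-like cells (0.38) was higher than those of MO/MP-like (-1.39), FAP-like (-0.51) and T cell-like cells (-0.47), by 1.77, 0.89 and 0.85. The MuSC-like value turned to -1.05 when cell cycle genes were let into the clustering, with 3 dKO cells leaving the class.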

How the results depend on the processing

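No paired analysis was possible because each group has 1 library, and for the same reason no replicate could be left out. Class sums of few cells, unreplicated libraries and the doublet step limit the values. In MuSC-like cells the S-phase ratio (-0.05) was 0.084 with no doublets removed, 0.16 with cells of 200 or more genes and -0.31 without the cell with most list UMIs in each library. The mitotic ratio there (0.38) was 0.54, 0.77 and 0.12 under the same choices, 1.21 as a mean of each cell's CPM, and turned to -1.05 with cell cycle genes in the clustering, where 3 dKO cells with 67.6% of the mitotic UMIs left the class. In MO/MP-like cells the S-phase ratio (-0.49) was -0.39 with cell cycle genes in the clustering, -0.57 without integration, -0.41 with no doublets removed, -0.40 at resolution 0.4, -0.37 as a mean of cells, -0.59 without the gene with most UMIs and -0.27 without the Ctsg and Prtn3-led cluster, a choice made after seeing the data. The mitotic ratio there (-1.39) was -0.99, -1.69 and -0.77 under the first 3 of these, -1.15 with 200 genes, -1.21 as a mean of cells, -1.49 without the top gene and -0.60 without that cluster. The share difference there (-3.25 points) was -5.92 at 1 or more UMIs and -1.03 without that cluster (-2.23 to 0.20, so no longer apart from no change). In FAP-like cells the S-phase ratio (0.25) was 0.35 with 200 genes, 0.31 scaled to the median gene and 0.18 as a mean of cells. The mitotic ratio there (-0.51) was -0.33 with cell cycle genes in the clustering, -0.27 with 200 genes, -0.45 scaled to the median gene and -0.58 without the top gene, and the share difference (-0.62 points) was -2.37 without thinning (-4.60 to -0.18). Where no construction shows it, the cause was not tested. The MuSC-like share difference ran from -6.61 to 11.9 points over 11 alternatives. Among all genes, with at least 100 UMIs in place of 20, the genes lower and higher by 1.5-fold were 477 and 358 in place of 1495 and 1486 in MuSC-like, 434 and 398 in place of 1068 and 693 in MO/MP-like, 320 and 276 in place of 805 and 547 in FAP-like and 48 and 87 in place of 612 and 690 in T cell-like cells. With 1 UMI in each library they were 1948 and 2765, 1816 and 1549, 1658 and 1176, and 1851 and 2030.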

Other observations

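Neutrophil-like cells of Ctrl had the highest mitotic level of any class there, 1773 CPM, and 11 of 65 thinned cells held 3 or more mitotic UMIs. The 11 cells with 3 or more mitotic UMIs before thinning were set beside the 91 with none. Elane, a granule protease gene of early precursors, was at 1870.5 CPM in the former and 0 in the latter. Camp, a secondary granule gene, was at 53831 and 16393 CPM. Of other granule genes, Ngp was at 35652 and 18496 CPM, while Ltf was alike in both, at 5109 and 5269 CPM. The mature genes Retnlg and Cxcr2 were lower in the cells with 3 or more, at 131 and 19092 CPM and at 65.7 and 589.7 CPM. The dKO library had 36 neutrophil-like cells with 2 mitotic UMIs in all, but with no doublets removed it had 39 with 235, of which 3 removed cells held 233 and a single cell 174. In Ctrl removed cells held 11.1% of the mitotic UMIs of this class.

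Dendritic cell-like cells fell into a cluster led by Xcr1, the chemokine receptor gene of cross-presenting dendritic cells, and another led by Cd209a. The mitotic list was at 981 CPM in Ctrl and 2031 CPM in dKO in the Xcr1-led cluster and at 363 and 228 CPM in the Cd209a-led cluster. The share of Xcr1-led cells with 3 or more thinned mitotic UMIs went the other way (8 of 45 and 4 of 36), and 3 cells held 71.0% of the dKO mitotic UMIs of the class, so no order was read from the level. The S-phase list was lower in dKO in both, at 758 and 309 CPM and at 449 and 204 CPM. Cells removed for their doublet scores were richer in mitotic UMIs than those kept, at 724 and 528.8 CPM in Ctrl and at 1152 and 329.8 CPM in dKO.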
